A study of Mus musculus with 6 samples.

Results

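Sox2 is an HMG-box transcription factor of the pluripotency network, and its single-exon gene lies inside the long noncoding RNA gene Sox2ot. In mouse embryonic stem cells Sox2 is driven by enhancers close to the gene and by a distant cluster of enhancers downstream, the Sox2 control region, which carries most of this activity. Tgif1 and its paralog Tgif2 are homeodomain corepressors, Hdac1 is the histone deacetylase that such corepressors recruit, Nanog is a homeodomain activator of pluripotency genes, and Smad3 brings TGF-beta and Activin signals to DNA.

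All ChIP-seq peaks of these proteins that touch mm9 chr3:34540000-34670000 were taken, an interval of 130 kb with Sox2 at about chr3:34549000-34551400 and the control region 104 to 112 kb downstream of the start of the gene. The interval held 51 of the 70533 peaks in the series. Of these, 10 of 16400 came from the list for Tgif1, 9 of 19129 from Tgif2, 10 of 16506 from Hdac1, 17 of 17272 from Nanog and 5 of 1226 from Smad3. Within the interval every peak was taken whatever its strength, but the interval itself was drawn around a known locus with earlier results of these data known.

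The cells were J1 mouse embryonic stem cells that express BirA, a bacterial biotin ligase, and were kept in serum with leukemia inhibitory factor. For Tgif1, Hdac1 and Smad3 the labels name an antibody, and for Nanog and Tgif2 they name streptavidin beads, which capture biotin. The sources used here do not say how the level of a tagged protein compares with that of the natural protein, and peaks cannot show cell identity by marker expression. Each factor is a group of 1 library, so nothing had a replicate check and no group was tested against another. The mock precipitation was not used here, and the peaks are therefore given without a control value. Each peak comes with a fold enrichment over background and a number of sequenced tags. Both are the authors' own values, and each was set only against other peaks of its own list. Tags inside peaks summed to between 43227 for Smad3 and 1347497 for Tgif2.

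The promoter of Sox2 is shown because the peaks of Tgif1 and Tgif2 with the most tags in the interval had their summits near the start of the gene. The 250 bases before the start, from RefSeq on build GRCm38.p6, read 5′ to 3′ on the strand of the gene, with a match to the core recognised by Tgif proteins in capitals.

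Sox2 promoter: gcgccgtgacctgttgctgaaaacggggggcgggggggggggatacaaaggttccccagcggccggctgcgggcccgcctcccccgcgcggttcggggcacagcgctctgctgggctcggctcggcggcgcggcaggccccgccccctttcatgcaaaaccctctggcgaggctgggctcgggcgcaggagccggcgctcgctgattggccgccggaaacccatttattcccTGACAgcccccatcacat

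The core searched was TGTCA on both strands, and the 1 match lies on the opposite strand, 14 to 18 bases before the start. This core is common, since 39.7% of 32536 promoter sequences of the same length hold it. None of the other cores searched on both strands occurs in these 250 bases. They were AGAC, the Smad box, held by 82.9% of promoters, ACAAT for Sox proteins (27.4%), CATTA for homeodomain proteins (23.9%) and the octamer ATGCAAAT (1.62%). The promoter is 72% G and C, against a median of 52.4%. A match describes the letters only, and the sequence of the other peaks was not read because no mm9 genome was used.

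The 51 peaks fell into 15 occupied sites, a site being the union of peaks that overlap by at least 1 bp. The sites formed 3 groups separated by more than 10 kb. The first ran from 4.09 kb upstream to 18.97 kb downstream of the start of Sox2 and held 9 sites with 27 peaks. After a stretch of 59.2 kb without a peak came 3 small sites with 4 peaks, and after a further 17.3 kb the last group, with 3 sites and 20 peaks. Nanog was present at 13 of the 15 sites, and 6 sites had a single factor, Nanog at 5 of them and Hdac1 at the other. The shares of the 33152 sites of the whole series that hold Nanog, or a single factor, were not computed. These counts therefore describe the locus only.

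**Figure D1:**
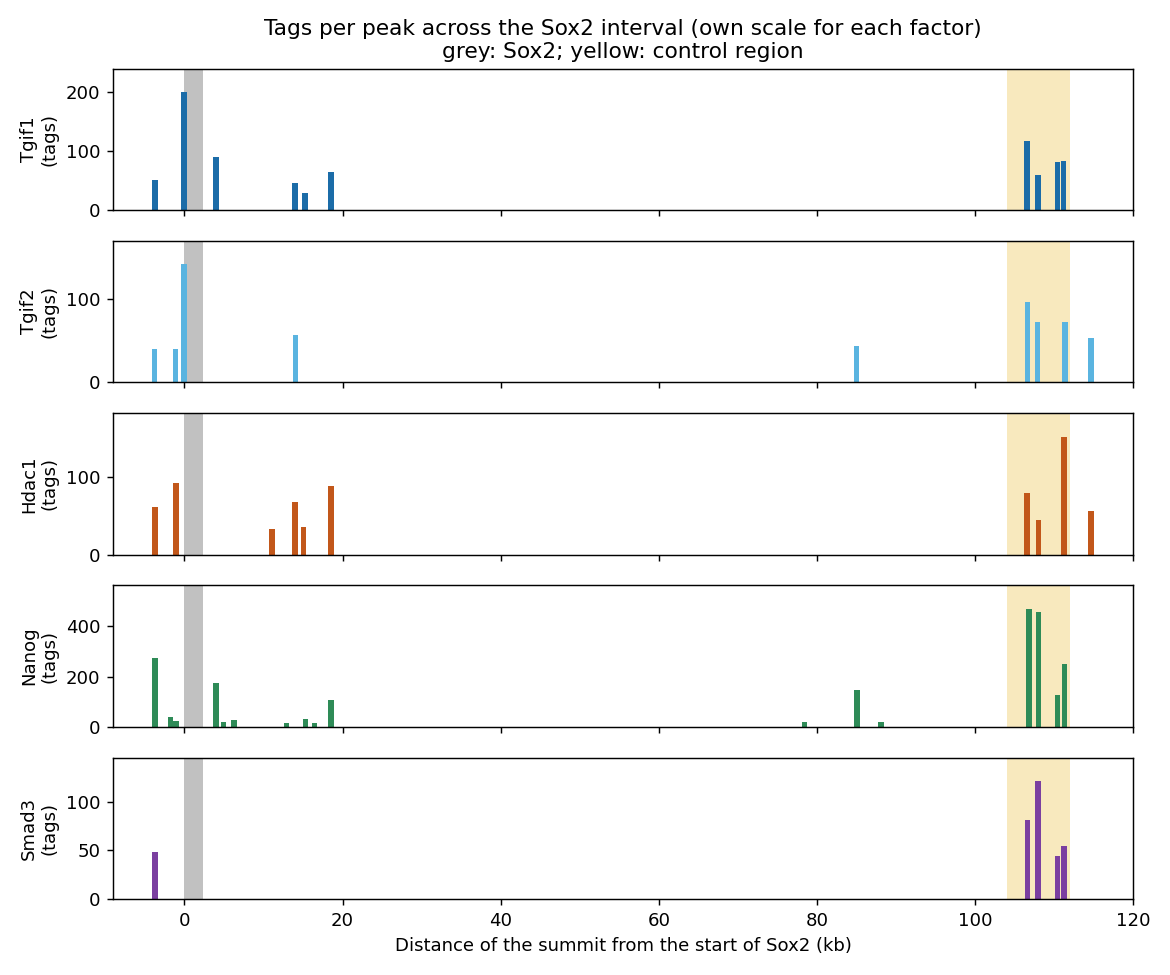
Tags in each peak (vertical axis, own scale for each factor) against the distance of its summit from the start of Sox2 in kb (horizontal axis), with Sox2 in grey and the control region in yellow. By tags per peak, the highest Nanog and Smad3 bars stand in the control region and the highest Tgif1 and Tgif2 bars, which are wide peaks, near the start of the gene, and no list has a peak between 18.97 and 78.21 kb.

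All 5 factors shared 3 of the 15 sites, whereas 665 of the 33152 sites of the whole series (2.01%) carried all 5. One lay upstream of Sox2 and the others in the control region. Of the Tgif1 peaks in the interval, 4 of 10 were overlapped by all 4 other factors, against 4.04% of the whole list. The count was 4 of 9 for Tgif2 against 3.51%, 4 of 10 for Hdac1 against 4.05%, and 4 of 17 for Nanog against 3.90%. For Smad3 it was 4 of 5 against 54.3%. Neighbouring peaks of 1 locus are not independent of each other, and the locus was examined because it is known, so these counts describe the locus.

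At the control region every factor had peaks at 4 positions or fewer, and the positions largely coincided. Tgif1, Nanog and Smad3 each had 4 peaks there, Tgif2 and Hdac1 3 each. The first site, chr3:34654939-34657401, held 10 peaks in 2 clusters of summits, and the second, chr3:34658556-34660838, held 8.

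The first cluster, near 106.6 kb downstream, was where Nanog had the most tags of any of its peaks in the interval. Nanog had 468 tags there, rank 37 of 17272 by tags, with a 92.2-fold enrichment. Smad3 had 81 tags (11.05-fold) and Tgif1 118 tags (13.55-fold). Tgif2 had 97 tags (13.47-fold) and Hdac1 79 tags (6.09-fold). The summits of Tgif1, Tgif2, Hdac1 and Smad3 lay within 32 bp of one another, at 34655580 to 34655612. The Nanog summit stood apart at 34655826. It was 237 bp from that of Tgif1, a distance reached by 18.3% of the 6015 Tgif1 peaks that overlap Nanog, whose median was 59 bp. From Smad3 it was 214 bp, reached by 6.41% of 1107 such peaks, with a median of 35 bp.

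The second cluster, near 108.0 kb, was the strongest Smad3 position of the interval and close to the strongest of its list. Smad3 reached a 35.26-fold enrichment there with 121 tags, rank 3 of 1226 by fold and rank 23 by tags. Nanog reached 175.71-fold with 455 tags, rank 191 of 17272 by fold and rank 43 by tags. Counted per kb of peak, this Nanog peak ranked 5 and the one at the first cluster 6 in the whole list. Tgif1 was at its highest fold of the interval, but that was only 14.93-fold with 60 tags, rank 6763 of 16400. Tgif2 had 14.56-fold with 73 tags and Hdac1 9.89-fold with 44 tags. The summits of the 5 factors lay within 103 bp, Nanog to Tgif2 being the widest distance.

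**Figure D2:**
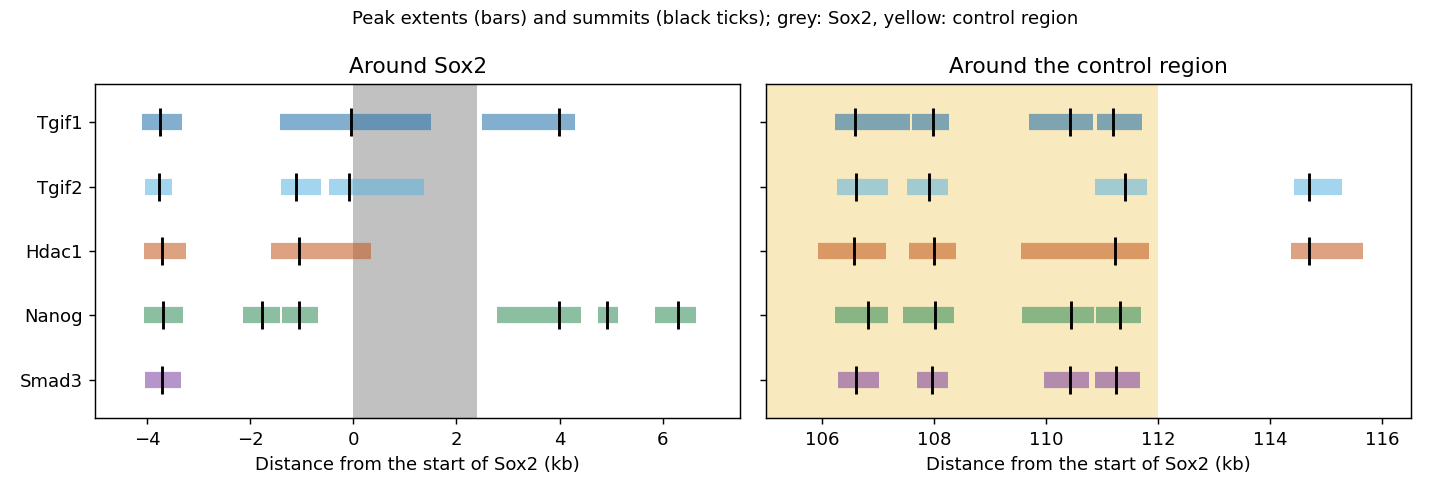
Extent of each peak (bars) and its summit (black ticks) by factor around Sox2 (left) and the control region (right), with the horizontal axis in kb from the start of the gene, Sox2 in grey and the control region in yellow. The 4 positions of the control region line up across factors except for the Tgif2 peak missing near 110.4 kb and the single wide Hdac1 peak, and only Tgif1, Tgif2 and Hdac1 reach the gene as placed here.

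At the site from 109.56 to 111.84 kb the factors differed in how their signal was divided. Hdac1 had a single peak of 2282 bp with 151 tags, its highest tag number of the interval and rank 190 of 16506. Tgif1, Nanog and Smad3 each had separate peaks near 110.4 and 111.2 to 111.3 kb. Tgif1 had 82 tags at the former and 83 at the latter, Nanog 128 and 251, and Smad3 44 and 55. The Nanog fold was 31.89 at the former and 101.05 at the latter, that of Tgif1 11.26 and 9.61. The Smad3 folds of 7.64 (rank 1006 of 1226) and 8.65 (rank 801) were below the median of its list, 9.565. The Tgif2 list had no peak near 110.4 kb, and Tgif2 had 73 tags (6.84-fold) at 111.41 kb. Tgif1, Nanog and Smad3 summits near 110.4 kb lay within 18 bp.

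Beyond the control region, at chr3:34663374-34664651, lay a site with Tgif2 and Hdac1 but none of the other lists. Tgif2 had 53 tags and a 12.64-fold enrichment, and Hdac1 56 tags and 6.85-fold. Their summits were 2 bp apart, at 114.68 and 114.69 kb.

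Near the gene, only Tgif1, Tgif2 and Hdac1 had peaks that reached the gene as placed here. Of these, the Hdac1 peak had its summit 8 bp from a Nanog summit, away from the largest Tgif1 and Tgif2 peaks. A Tgif1 peak of 2930 bp, chr3:34547582-34550512, ran across the start of Sox2 with its summit at 34548957 and 200 tags, rank 238 of 16400. Tgif2 had a peak at chr3:34548536-34550376 with 142 tags, rank 1070 of 19129, and a summit 33 bp from that of Tgif1. Both are the peaks with the most tags of their lists in the interval, yet by fold they had only 7.37 (rank 15165) and 12.80 (rank 10962). Both are wide, and by tags per kb of peak they stood at 29.5% and 21.7% from the top of their lists. The highest Tgif1 and Tgif2 peaks of the interval by tags per kb lay in the control region, at 111.20 and 106.60 kb. The start of Sox2 is known here only to about 1 kb, and its end is also approximate. The side of the start on which these summits lie therefore cannot be read, and all distances in kb carry that uncertainty. So does the question of which peaks reach the gene. The Hdac1 peak ends at 34549347, and the nearest Nanog peaks end at 34548321 and begin at 34551782.

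Hdac1 reached the approximate start with a peak of 92 tags (6.14-fold), but its summit lay 1.05 kb upstream, 1006 bp from that of Tgif1. A smaller Tgif2 peak with 40 tags (8.26-fold) and a Nanog peak with 23 tags (10.47-fold) had their summits within 59 bp of that Hdac1 summit. A further Nanog peak 1.77 kb upstream had 41 tags (29.57-fold). No Nanog peak overlapped the gene as placed here. The nearest Nanog summit was 1014 bp from the Tgif1 summit, a distance reached by 2.03% of Tgif1 peaks that overlap Nanog. That share is not matched for width, and this Tgif1 peak has 2930 bp against a list median of 933 bp. A wide peak can overlap Nanog farther from its summit. No Smad3 peak belonged to this site. The 6 peaks together made the site chr3:34546870-34550512.

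The upstream site with all 5 factors, chr3:34544913-34545767, was narrow. It covered 854 bp, against a median of 1584 bp over the 665 sites with 5 factors, and ranked 653 by width. Nanog had 272 tags and a 147.87-fold enrichment here, rank 308 of 17272 by fold. Smad3 had 48 tags and 17.45-fold, rank 63 of 1226. Hdac1 had its highest fold of the interval, 15.30 with 61 tags, rank 3599 of 16506. By fold the Tgif proteins ranked low at the same place, Tgif1 with 51 tags (10.50-fold, rank 11276) and Tgif2 with 40 tags (7.13-fold, rank 18179 of 19129). By tags per kb of peak, however, they stood at 31.6% and 24.3% from the top of their lists. All summits lay within 64 bp.

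Downstream of the gene within 5 kb, the site chr3:34551497-34553412 had Tgif1 and Nanog only. Nanog had 176 tags (43.58-fold) and Tgif1 91 tags (9.54-fold), with summits 10 bp apart at 3.98 and 3.99 kb. A small Nanog peak at 4.92 kb, chr3:34553752-34554129, had 19 tags (12.32-fold), and another at 6.31 kb had 29 tags (15.22-fold).

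Farther downstream, the site chr3:34561595-34564683 held 7 peaks of 4 factors, without Smad3. It carried the highest Tgif2 fold of the interval, 14.76 with 57 tags, which was still only rank 8903 of 19129. The Tgif1 summit there lay 51 bp away, with 47 tags (12.29-fold), and an Hdac1 peak of 68 tags (8.76-fold) overlapped both. No Nanog peak overlapped this Tgif1 or Tgif2 peak. In the rest of the site, Nanog had 17 tags at 12.94 kb (24.03-fold) and 31 tags at 15.34 kb (35.49-fold). Tgif1 had 30 tags (9.76-fold) and Hdac1 36 tags (8.22-fold) near the latter.

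The site chr3:34566684-34567969 had Tgif1, Hdac1 and Nanog with summits within 11 bp, at 18.52 to 18.53 kb. Nanog had 105 tags (34.33-fold), Hdac1 88 tags (14.38-fold) and Tgif1 64 tags (8.13-fold). Hdac1 alone was at 11.07 kb with 33 tags (6.60-fold) and Nanog alone at 16.48 kb with 16 tags (15.06-fold), the lowest tag number in the Nanog list. In the middle group, Nanog had 21 tags at 78.40 kb and 20 at 88.13 kb. Between these, at 85.09 kb, it had 148 tags (62.11-fold, rank 1943 of 17272), together with a Tgif2 peak of 44 tags (9.13-fold).

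The factors also differed in where in the interval their tags lay. Smad3 had 301 of its 349 tags in the control region, or 86.2% (95% Wilson interval 82.2 to 89.5). Nanog had 1302 of 2220 there, or 58.6% (56.6 to 60.7). Tgif1 had 41.5% (38.2 to 44.9) of 826, Tgif2 39.3% (35.5 to 43.2) of 619 and Hdac1 38.7% (35.2 to 42.3) of 708. The intervals cover counting error only and a single library stands behind each share, so the differences between factors were not tested.

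Within 5 kb of the gene lay 41.4% of the Tgif1 tags (38.1 to 44.8), 35.9% for Tgif2 (32.2 to 39.7), 25.2% for Nanog, 21.6% for Hdac1 and 13.8% for Smad3. Hdac1 had the largest share of the 5 lists elsewhere in the interval, 39.7% (36.2 to 43.3), and Smad3 had no peak there. Per kb of peak, Nanog had 330 tags in the control region and 113 near the gene, a ratio of 2.93. The ratio was 1.52 for Smad3, 1.40 for Tgif1, 1.35 for Tgif2 and 1.14 for Hdac1. The values near the gene rest on few peaks of unequal width. They were 1 of Smad3, 2 of Hdac1, 3 of Tgif1, 3 of Tgif2 and 6 of Nanog. Lists differ in the smallest peak they hold, from 11 tags for Smad3 to 33 for Tgif2, so weak binding enters these sums to a different extent.

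**Figure D3:**
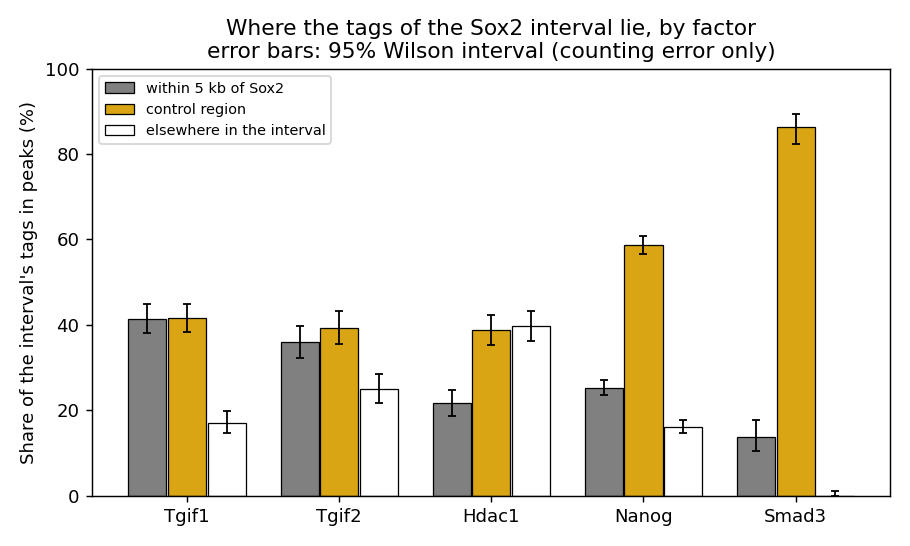
Share of the interval's tags in peaks, in percent, within 5 kb of Sox2 (grey), in the control region (yellow) and elsewhere (white) for each factor, with 95% Wilson intervals as error bars. Smad3 had 86.2% and Nanog 58.6% in the control region, while Tgif1 had nearly equal shares of 41.5% there and 41.4% near the gene.

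For Tgif1, Tgif2 and Hdac1, most peaks of the interval ranked lower by fold than by tags, some of them only slightly. How large a part of each whole list does so was not counted. At or above the median fold of their list were 2 of 10 Tgif1 peaks, 2 of 9 Tgif2 peaks and 2 of 10 Hdac1 peaks, against 13 of 17 for Nanog and 3 of 5 for Smad3. At or above the median tag number were 7 of 10 for Tgif1, 5 of 9 for Tgif2, 7 of 10 for Hdac1, 10 of 17 for Nanog and 5 of 5 for Smad3. A median divides a list into equal parts, so the counts by tags for Tgif2 and Nanog are close to the share of a whole list. With only the peaks at or above the median fold, no site of the interval kept all 5 factors. How many of the 665 sites of the series with all 5 factors would remain under this limit was not counted. The loss can therefore not be set against the rest of the series. The strongest Hdac1 peak of the interval by fold stood at 21.8% from the top of its list, that of Tgif1 at 41.2% and that of Tgif2 at 46.5%. By tags the corresponding values were 1.15%, 1.45% and 5.59%. Nanog stood at 1.11% by fold and 0.214% by tags, and Smad3 at 0.245% and 1.88%.

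**Figure D4:**
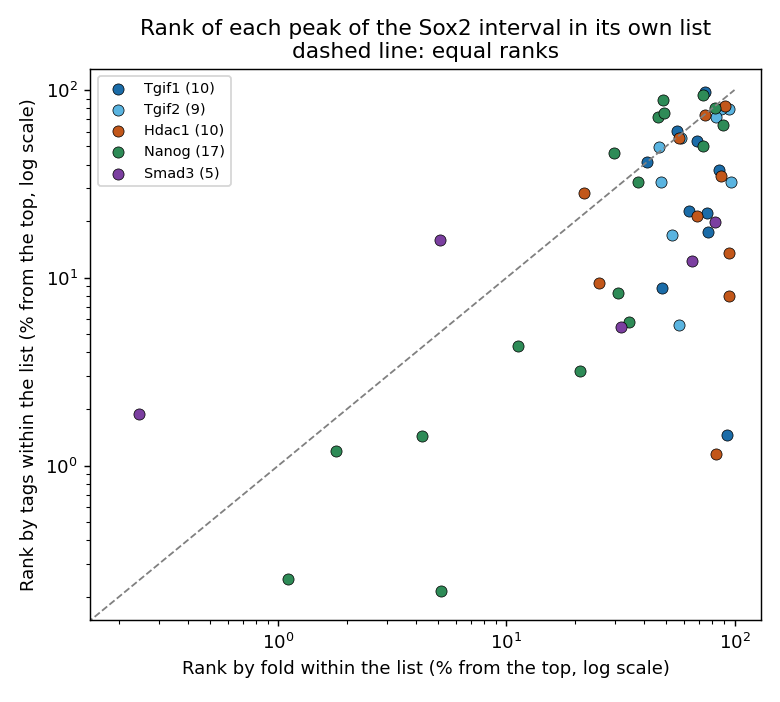
Rank of each of the 51 peaks within its own list by fold (horizontal axis) and by tags (vertical axis), in percent from the top on log scales, coloured by factor, with equal ranks on the dashed line. The Tgif1 peak near the start of Sox2 and the wide Hdac1 peak of the control region lie lowest on the right, within 1.5% of the top by tags and beyond 80% by fold.

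Nanog accompanied a larger share of the Tgif1, Tgif2 and Hdac1 peaks here than in their lists as a whole. It overlapped 9 of 10 Tgif1 peaks, against 36.7% of the list, 6 of 9 Tgif2 peaks against 32.2%, and 8 of 10 Hdac1 peaks against 45.6%. For Smad3 it was 5 of 5, close to the 90.3% of the list. In return, of the 17 Nanog peaks, 9 carried Tgif1 (35.8% of the list), 6 Tgif2 (36.7%), 10 Hdac1 (45.9%) and 5 Smad3 (6.43%). Between the paralogs, Tgif2 overlapped 6 of 10 Tgif1 peaks, against 79.2% of the list, and Tgif1 overlapped 7 of 9 Tgif2 peaks, against 68.0%. Both counts describe the same places, since the wide Tgif1 peak at the start of Sox2 overlapped both Tgif2 peaks of its site. Hdac1 overlapped 9 of 10 Tgif1 peaks (66.1% of the list) and 8 of 9 Tgif2 peaks (59.9%). With so few peaks of 1 locus, none of these differences was tested.

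The interval was set against all other windows of 130 kb tiled along the chromosomes, 20272 in number. Of these, 18 (0.0888%) held at least 51 peaks, and 10164 held none. Windows with at least as many peaks of a factor as the interval numbered 124 (0.612%) for Tgif1, 248 (1.22%) for Tgif2 and 88 (0.434%) for Hdac1. There were 7 (0.0345%) for Nanog and 5 (0.0247%) for Smad3. At least 3 sites with all 5 factors were held by 15 windows (0.0740%). No tiled window reached the interval in all 5 peak counts at once, but these counts were taken from the interval itself. A fixed tiling can divide a cluster of peaks, whereas the interval was drawn around one. With windows that begin at each peak, chosen after the data were seen, 45 separate places had at least 51 peaks and 16 had at least 17 Nanog peaks. For such windows no joint value over all 5 peak counts is given.

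**Figure D5:**
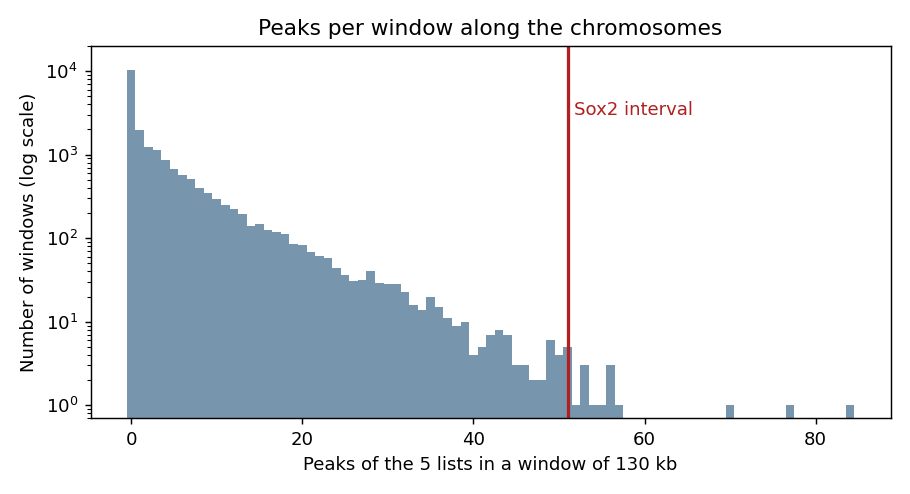
Number of windows (vertical axis, log scale) by the number of peaks of the 5 lists in a window of 130 kb (horizontal axis), with the 51 peaks of the Sox2 interval as a red line. Most windows hold few peaks or none, and 18 of 20272 lie at or to the right of the line.

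By tags the interval led the Nanog list. Its 2220 Nanog tags exceeded every other tiled window, whose maximum was 1684, and every window begun at a peak outside the interval and clear of it, whose maximum was 1826. The 349 Smad3 tags were reached by 4 tiled windows and by 4 separate places begun at a peak. For the 708 Hdac1 tags these numbers were 36 and 96, for the 826 Tgif1 tags 80 and 132, and for the 619 Tgif2 tags 307 and 413.

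Among the 665 sites of the series with all 5 factors, the one at 105.94 to 108.40 kb ranked 3 for Nanog with 923 tags and 4 for Smad3 with 202. It ranked 88 for Tgif1 with 178 tags, 102 for Tgif2 with 170 and 161 for Hdac1 with 123. At 2462 bp it was also wider than the median, rank 125. The site at 109.56 to 111.84 kb ranked 36 for Smad3, 60 for Nanog, 87 for Hdac1, 107 for Tgif1 and 390 for Tgif2. The narrow upstream site ranked 137 for Nanog and 154 for Smad3, but 512 for Hdac1, 534 for Tgif1 and 616 for Tgif2. These ranks are not corrected for width. Per kb of peak, the Hdac1 peak there stood at 3.66% from the top of its list and the Smad3 peak at 8.32%. By summed tags, Nanog and Smad3 thus had higher ranks than Tgif1 and Tgif2 at each of the 3 sites. By fold this did not hold throughout, since near 110.4 kb the Smad3 peak stood at 82.1% from the top of its list and the Tgif1 peak at 63.4%.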

How the data were processed

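Per the submitters' processing notes, BWA 0.5.9-r16 and MACS were used with build mm9. Settings, control library and threshold are not given in the sources used here. The deposited lists have no header and hold, per peak, a fold enrichment (a ratio from the authors' peak caller) and a whole number read as the tag count. Peaks were called by the authors on 1 library per factor. The summit position was read from a single column of each list. Coordinates are printed as deposited, and whether starts count from 0 or 1 is not stated. Library depth is unknown, so no depth correction was made.

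Peaks were taken by an overlap of at least 1 bp with the interval. Those within 5 kb of Sox2, and those in the control region, were assigned by summit. Every peak of the interval is described, as are all sites with 3 or more factors. Distances are from the approximate start 34549000. Windows overlapping the interval were left out. A window's peaks were counted by overlap and its tags by summit. Ranks give ties the better rank. The interval, the lists and the measures were chosen with earlier results of these data known. Overlap, merging and ranks were tested on simulated data. Python 3.11.15, pandas 2.3.3, NumPy 2.4.6, SciPy 1.17.1 and matplotlib 3.10.9 were used.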

Additional observations from a re-analysis of the deposited data

How the results depend on the processing

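Of 47 alternative values, 19 stayed within their limit and 28 did not. When each list was limited to its upper part by fold, from the median on, the interval kept 2 peaks of Tgif1, 2 of Tgif2, 2 of Hdac1 and 3 of Smad3, and 0 sites with all 5 factors. The windows reaching it then numbered 50 for all peaks, 1922 by Tgif1, 2288 by Tgif2 and 1927 by Hdac1 peaks. By Nanog peaks there were 0 and by Smad3 peaks 10, and no such value could be had for 5-factor sites. How many of the 665 sites of the series with 5 factors pass the fold limit was not counted. The strongest peak by tags stood at 1.45% (Tgif1), 5.59% (Tgif2), 1.15% (Hdac1), 0.214% (Nanog) and 1.88% (Smad3) from the top. The strongest peak by tags per kb, another peak for Tgif1, Tgif2, Hdac1 and Nanog, stood at 5.20% (Tgif1), 5.30% (Tgif2), 3.66% (Hdac1) and 0.0289% (Nanog). Shifting the windows by 50% of their length left 3 for Nanog. Windows begun at each peak, an alternative added after the data were seen, gave 45 places for all peaks, 210 by Tgif1, 382 by Tgif2, 190 by Hdac1, 16 by Nanog, 8 by Smad3 and 26 by 5-factor sites. The cause of these changes was not tested, beyond the smaller lists that the fold limit leaves. Other joining rules gave 14 to 18 sites, of which 3 or 4 had all 5 factors. Without replicates and without library depth, levels could not be compared between factors. No paired analysis was possible because each factor had 1 library and no test was made.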

Other observations

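The surroundings of the interval held few peaks. In the 50 kb before it lay 4 peaks, 2 of Tgif2, 1 of Hdac1 and 1 of Nanog, and in the 50 kb after it lay 2, 1 of Tgif1 and 1 of Nanog.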
